A study of Homo sapiens with 24 samples.

Results

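PI3, SLPI, LCN2, DEFB1, DEFB4A and RNASE7 are 6 genes for proteins that keratinocytes secrete as part of the chemical barrier of skin. They were taken by gene symbol from a count table of 26364 genes, where all 6 had a row, and 5 of them entered the tests with 15757 genes in all. DEFB4A had too few reads. RNA was sequenced from nTERT-1 keratinocytes, an immortalised human line, in 4 genotypes named NT, KAT2A_KD, KAT2B_KD and KAT2AB_KD. KAT2A and KAT2B are paralogous histone acetyltransferases, and the labels give knockdown of the former, of the latter and of both. NT is used here as the comparison group. The meaning of NT, the knockdown method and the number of clones are not given in the sources used here. Each genotype was sampled at the stages Subconfluent, Confluent and Differentiated (day 4), with 2 libraries in each of the 12 groups. All samples, the undifferentiated ones included, carry the same treatment label for keratinocyte differentiation.

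PI3 encodes elafin, and SLPI encodes the secretory leukocyte protease inhibitor. Both are small proteins with whey acidic protein (WAP) domains that block neutrophil elastase, and both also act against microbes. LCN2 binds the iron carriers of bacteria, DEFB1 and DEFB4A are beta-defensins that damage microbial membranes, and RNASE7 is an antimicrobial ribonuclease of skin. In epidermis several such genes, though not all, are known to be expressed in the upper, differentiating layers and to be induced by interleukin-1, interleukin-17 and growth factor signals.

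Library totals ran from 8010178 to 16054003 reads, and libraries of a group correlated between 0.963 and 0.981 on the log2 scale. CPM is the reads of a gene per 1000000 reads of a library after TMM scaling. At Subconfluent, Confluent and Differentiated, mean KAT2A (n = 2) was 31.4, 37.4 and 11.4 CPM in NT, 3.79, 4.53 and 3.98 CPM in KAT2A_KD and 9.35, 4.51 and 4.41 CPM in KAT2AB_KD. Mean KAT2B was 5.17, 4.19 and 42.6 CPM in NT, 0.599, 0.961 and 6.59 CPM in KAT2B_KD and 1.56, 1.93 and 12.4 CPM in KAT2AB_KD. Each knockdown was below NT in every library for its own target, but not each difference passed the test given below: for KAT2A those at Differentiated did not (adjusted p = 0.139 and 0.144), and for KAT2B those at Subconfluent and Confluent did not (0.0689 and 0.220 in KAT2B_KD, 0.117 and 0.419 in KAT2AB_KD). Of those that passed, KAT2A in KAT2A_KD was lost without either KAT2A_KD library at Subconfluent (adjusted p up to 0.146) and without KAT2A_KD Confluent replicate 1 (0.0808), KAT2B in KAT2B_KD without KAT2B_KD Differentiated replicate 1 (0.0580), and KAT2A in KAT2AB_KD at Subconfluent without any 1 library. KAT2B in KAT2AB_KD at Differentiated (adjusted p = 0.0484) remained only without KAT2AB_KD Differentiated replicate 2. The KAT2AB_KD libraries were uneven, with KAT2A at 7.35 and 1.67 CPM at Confluent and 1.98 and 6.85 CPM at Differentiated, and KAT2B at 5.85 and 18.9 CPM at Differentiated. CPM carries no correction for gene length, so it is compared here between libraries and not between genes. Keratinocyte markers were high in every library, with KRT5 between 7108 and 22332 CPM. Summed markers of other cell types were low and were higher at Differentiated, as the members were. The 8 leukocyte markers summed to 0.172 to 1.44 CPM before and 11.4 to 47.4 CPM at Differentiated. Of them ELANE and LYZ had no read in 23 of 24 libraries, CSF3R none in 22, MPO and FCGR3B none in 16, CD177 none in 15, CXCR2 none in 4 and PTPRC none in 3. FCGR3B reached 45.0 CPM, and none of the other 7 passed 1.98 CPM. The 7 fibroblast markers summed to 1.44 to 7.71 CPM before and 31.9 to 53.7 CPM at Differentiated. At Subconfluent their sum was 6.57 to 7.71 CPM in KAT2AB_KD, 3.90 to 4.37 CPM in KAT2A_KD, 2.32 to 2.58 CPM in NT and 1.44 to 1.90 CPM in KAT2B_KD, the order that PI3 also had. COL1A1 made up most of it, with 1.07 to 51.1 CPM, while COL3A1, DCN, LUM and PDGFRA had no read in 16 to 19 libraries. The 5 melanocyte markers summed to 0.314 to 1.94 CPM before and 3.05 to 8.39 CPM at Differentiated, with TYR at 0 reads in all 24 libraries. The part of these markers in the members' levels was not tested. A change counts as passed below when the adjusted p of edgeR's quasi-likelihood test (Benjamini-Hochberg over all 15757 genes) was under 0.05. No label says that the libraries of a group came from separate cultures, so the spread behind every p-value is that between libraries and may be technical. In these bulk samples more RNA per cell and more cells that express a gene cannot be told apart.

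PI3 rose at both steps of the NT culture. In NT it was measured at 5.22 and 4.12 CPM at Subconfluent, at 22.1 and 53.3 CPM at Confluent, and at 7022 and 3888 CPM at Differentiated. The 3 stages did not overlap, and at Differentiated PI3 alone took 0.298% to 0.579% of all reads of an NT library. From Subconfluent to Confluent the log2 fold change was 3.01 (SE 0.560, adjusted p = 0.00769), and from Confluent to Differentiated it was 7.18 (SE 0.640, adjusted p = 2.12e-08), a 145-fold difference. Without NT Confluent replicate 2 the latter was 7.95 and the former 2.23. The first step passed in 1 of the 4 fits that each leave out 1 library. It was lost without NT Confluent replicate 2 and without either NT Subconfluent library, with adjusted p of 0.111 to 0.179.

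SLPI moved with PI3 through the same stages. Its NT libraries were at 1.65 and 2.49 CPM at Subconfluent, 5.65 and 12.1 CPM at Confluent, and 721 and 899 CPM at Differentiated, again without overlap. The 2 steps had log2 fold changes of 2.12 (SE 0.376, adjusted p = 0.00528) and 6.51 (SE 0.384, adjusted p = 8.55e-11). Without NT Confluent replicate 2 they were 1.46 and 7.16. The first step was lost without that library (adjusted p = 0.194) or NT Subconfluent replicate 1 (adjusted p = 0.162). From Subconfluent to Confluent in NT, 2 of the 5 tested genes rose, PI3 and SLPI, against 0.685% of all genes tested that rose.

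**Figure D1:**
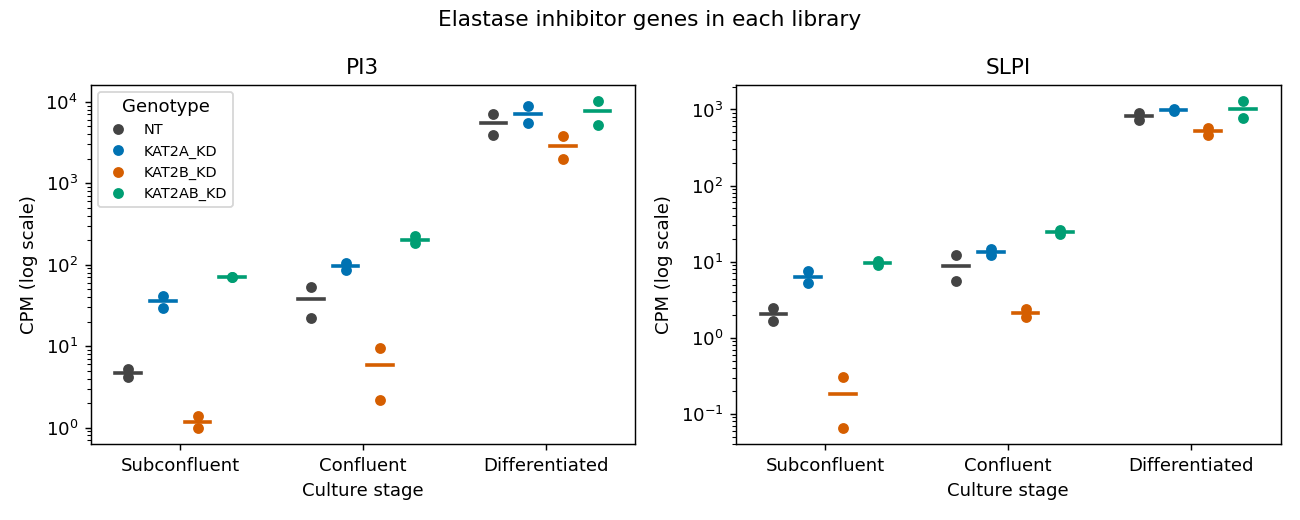
CPM of PI3 (left) and SLPI (right) in each of the 24 libraries on a log scale, by culture stage and genotype; points are libraries and bars are means of 2. Before differentiation the genotypes are ordered KAT2AB_KD, KAT2A_KD, NT, KAT2B_KD by mean for both genes, and at Differentiated the spread between genotypes is narrower, with PI3 between 1963 and 10164 CPM.

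The rise from Confluent to Differentiated was found for PI3 and SLPI in all 4 genotypes. PI3 rose 75.1-fold in KAT2A_KD, 512-fold in KAT2B_KD and 37.9-fold in KAT2AB_KD, with adjusted p of at most 5.14e-07. The KAT2B_KD value rests on Confluent libraries at 2.15 and 9.45 CPM. Its log2 fold change was 9.0 with both, 8.27 without KAT2B_KD Confluent replicate 1 and 10.42 without replicate 2 of that group. For SLPI the log2 fold changes were 6.17, 7.93 and 5.38 in the same order, with adjusted p of at most 6.81e-10. For both genes the rise was largest in KAT2B_KD, the genotype with the lowest Confluent level, and smallest in KAT2AB_KD, the one with the highest. The difference in response from NT was itself tested. For PI3 it was -0.94 (SE 0.696, adjusted p = 0.758) in KAT2A_KD, 1.82 (SE 0.728, adjusted p = 0.309) in KAT2B_KD and -1.93 (SE 0.699, adjusted p = 0.224) in KAT2AB_KD. For SLPI it was -0.33, 1.43 and -1.12, with adjusted p of 0.897, 0.199 and 0.269. None of the 5 tested genes passed in these 3 contrasts by edgeR or DESeq2, and 0, 3 and 2 of them had an unadjusted p under 0.05. Of all genes tested, 0.616%, 0.888% and 1.33% passed. A large fraction of the transcriptome rose with differentiation: 24.3% of all genes tested in NT, 21.4% in KAT2A_KD, 19.3% in KAT2B_KD and 22.6% in KAT2AB_KD.

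Among the undifferentiated cultures the highest PI3 and SLPI levels were those of KAT2AB_KD, and the lowest were those of KAT2B_KD. At Subconfluent, PI3 was at 70.6 and 69.7 CPM in KAT2AB_KD, where NT had 5.22 and 4.12 CPM, and SLPI was at 10.1 and 8.97 CPM, where NT had 1.65 and 2.49 CPM. At Confluent the KAT2AB_KD libraries held 183 and 223 CPM of PI3 and 23.3 and 26.0 CPM of SLPI. At neither stage did the libraries of KAT2AB_KD and NT overlap for these genes. PI3 was higher in KAT2AB_KD by 3.90 on the log2 scale at Subconfluent (SE 0.575, adjusted p = 0.000532), a 14.9-fold difference that passed in 4 of 4 fits without 1 library. At Confluent the difference was 2.43 (SE 0.518, adjusted p = 0.0123), lost without NT Confluent replicate 1 (adjusted p = 0.256) and 3.20 without NT Confluent replicate 2. SLPI was higher by 2.22 at Subconfluent (SE 0.374, adjusted p = 0.00183) and by 1.47 at Confluent (SE 0.322, adjusted p = 0.0157). The former was lost without NT Subconfluent replicate 1 (adjusted p = 0.0648). The latter was lost without NT Confluent replicate 1 (adjusted p = 0.311) or either KAT2AB_KD Confluent library (0.0605 and 0.0598), and the value was 2.12 without NT Confluent replicate 2. Thus 2 of 5 tested genes passed at each stage, against 1.86% of all genes higher at Subconfluent and 1.39% at Confluent. Comparisons with NT at 1 stage share the 2 NT libraries.

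KAT2A_KD stood between NT and KAT2AB_KD. Its Subconfluent libraries had 29.7 and 41.3 CPM of PI3 and 5.20 and 7.56 CPM of SLPI, all above the NT libraries. PI3 was 2.92 higher on the log2 scale (SE 0.559, adjusted p = 0.0211), a 7.55-fold difference. It was lost in each of the 4 fits that leave out 1 library, with adjusted p of 0.0760 without KAT2A_KD Subconfluent replicate 1, 0.168 without replicate 2 of that group, 0.211 without NT Subconfluent replicate 1 and 0.303 without NT Subconfluent replicate 2. SLPI differed from NT by 1.63 (SE 0.381, adjusted p = 0.0774), which did not pass. PI3 was thus 1 of 5 tested genes to pass, against 0.267% of all genes higher. At Confluent, PI3 was at 104 and 86.9 CPM and SLPI at 14.8 and 12.2 CPM, each above both NT libraries. For SLPI the margin was small, with 12.16 CPM in KAT2A_KD replicate 2 against 12.10 CPM in NT replicate 2. The log2 differences of 1.34 (SE 0.503, adjusted p = 0.437) and 0.60 (SE 0.327, adjusted p = 0.699) did not pass. There edgeR and DESeq2 called 0 of the 5 tested genes and 1 had an unadjusted p under 0.05, while 0.647% of all genes passed in either direction.

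In KAT2B_KD both inhibitor genes were lower. At Subconfluent PI3 was at 0.989 and 1.37 CPM, below both NT libraries, and the log2 difference of -1.97 (SE 0.659, adjusted p = 0.639) did not pass. SLPI had only 5 reads in the 2 KAT2B_KD Subconfluent libraries, or 0.304 and 0.0653 CPM. Its difference from NT was -3.46 (SE 0.632, adjusted p = 0.0336), and it was lost without any 1 of the 4 libraries, with adjusted p of 0.0894 without NT Subconfluent replicate 1, 0.155 and 0.536 without KAT2B_KD replicate 1 and 2 (log2 differences of -4.74 and -2.71), and 0.242 without NT Subconfluent replicate 2. Of all genes, 0.0698% were called lower in this comparison. At Confluent PI3 was at 2.15 and 9.45 CPM and SLPI at 1.86 and 2.41 CPM, below every NT library of that stage. Their log2 differences were -2.73 (SE 0.556, adjusted p = 0.0239) and -2.07 (SE 0.380, adjusted p = 0.0103), so 2 of 5 tested genes fell, against 0.393% of all genes. The call for PI3 was lost without KAT2B_KD Confluent replicate 1 or NT Confluent replicate 2 (log2 differences of -1.98 and -1.96, adjusted p = 0.415 and 0.413), and the difference was -4.13 without KAT2B_KD Confluent replicate 2. The call for SLPI was lost without those same libraries (0.291 and 0.324, the latter with a difference of -1.42) and without KAT2B_KD Confluent replicate 2 (0.0817). Within KAT2B_KD, SLPI rose from Subconfluent to Confluent by 3.51 (SE 0.635, adjusted p = 0.00512), where 1.09% of all genes rose. This step was lost without KAT2B_KD Subconfluent replicate 2 (2.76, adjusted p = 0.116) and was 4.79 without replicate 1 of that group. The same step in KAT2A_KD and KAT2AB_KD was 1.43 and 1.53 for PI3 and 1.09 and 1.37 for SLPI. None of those passed, and edgeR called 0 of the 5 tested genes in either genotype, where 2 had an unadjusted p under 0.05 in each and DESeq2 called 0 and 1 (SLPI). Of all genes 0.235% and 0.609% passed.

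For PI3 and SLPI the 2 single knockdowns lay on opposite sides of NT before differentiation. Their difference from each other is therefore larger than that of either from NT, which is no separate result. PI3 was higher in KAT2A_KD than in KAT2B_KD by 4.89 on the log2 scale at Subconfluent (SE 0.646, adjusted p = 0.000590), a 29.6-fold difference, and by 4.07 at Confluent (SE 0.579, adjusted p = 0.00292). SLPI was higher by 5.09 (SE 0.555, adjusted p = 9.10e-05) and 2.67 (SE 0.379, adjusted p = 0.00292). The Subconfluent values passed in 4 of 4 fits without 1 library, and both Confluent calls were lost without KAT2B_KD Confluent replicate 1 (adjusted p = 0.0987). At each stage 2 of 5 tested genes passed, against 0.476% of all genes higher at Subconfluent and 0.254% at Confluent. The same 2 genes were higher in KAT2AB_KD than in KAT2B_KD. PI3 differed there by 5.87 at Subconfluent (SE 0.661, adjusted p = 2.53e-05) and 5.16 at Confluent (SE 0.602, adjusted p = 7.00e-05), and SLPI by 5.68 and 3.54 (adjusted p = 4.58e-06 and 4.26e-05). All of these passed in 4 of 4 fits without 1 library. Leaving out 1 KAT2B_KD library moved PI3 at Confluent to between 3.34 and 5.48 against KAT2A_KD and between 4.42 and 6.57 against KAT2AB_KD, and SLPI at Subconfluent to between 4.34 and 6.38 and between 4.92 and 6.97. In KAT2AB_KD against KAT2B_KD at these stages 2.09% and 1.26% of all genes were called higher. Against KAT2A_KD, the KAT2AB_KD libraries were higher in PI3 at both stages without overlap. The log2 differences of 0.98 (SE 0.500, adjusted p = 0.953) and 1.08 (SE 0.496, adjusted p = 1) did not pass. In KAT2AB_KD against KAT2A_KD at Subconfluent, Confluent and Differentiated, edgeR and DESeq2 called none of the 5 genes, 0, 3 and 1 had an unadjusted p under 0.05, and edgeR called 0%, 0.00635% and 0.317% of all genes in either direction.

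At Differentiated the genotypes were closer together. PI3 was at 7022 and 3888 CPM in NT, 8941 and 5434 CPM in KAT2A_KD, 3853 and 1963 CPM in KAT2B_KD and 10164 and 5202 CPM in KAT2AB_KD. The NT libraries overlapped those of KAT2A_KD and of KAT2AB_KD, and both KAT2B_KD libraries lay below both of NT. The margin was small, with 3853 CPM in KAT2B_KD replicate 1 against 3888 CPM in NT replicate 2. Within replicate 1 and within replicate 2, PI3 was at 1.27 and 1.40 times its NT level in KAT2A_KD. It was at 0.549 and 0.505 times NT in KAT2B_KD and at 1.45 and 1.34 times NT in KAT2AB_KD. These PI3 ratios were not tested. The log2 differences from NT were 0.40 (SE 0.488, adjusted p = 0.816), -0.91 (SE 0.491, adjusted p = 0.348) and 0.49 (SE 0.488, adjusted p = 0.700) in KAT2A_KD, KAT2B_KD and KAT2AB_KD. SLPI was at 721 and 899 CPM in NT, 1004 and 948 CPM in KAT2A_KD, 579 and 459 CPM in KAT2B_KD and 1282 and 775 CPM in KAT2AB_KD. Its differences from NT were 0.27 (SE 0.298, adjusted p = 0.797), -0.64 (SE 0.299, adjusted p = 0.254) and 0.34 (SE 0.298, adjusted p = 0.640). None of the 5 tested genes passed against NT by edgeR. At an unadjusted p under 0.05 there were 0 in KAT2A_KD, 2 in KAT2B_KD (SLPI and RNASE7) and 1 in KAT2AB_KD (RNASE7), and DESeq2 called 0, 1 (RNASE7) and 0. Of all genes, edgeR called 1.22%, 4.85% and 2.74% in either direction. SLPI was higher in KAT2AB_KD than in KAT2B_KD by 0.99 (SE 0.301, adjusted p = 0.0394), where 6.5% of all genes were higher. That call was lost without KAT2AB_KD Differentiated replicate 1 (0.270) and without KAT2B_KD Differentiated replicate 1 (0.0972) or 2 (0.138). PI3 differed by 1.40 in the same comparison (SE 0.496, adjusted p = 0.0743), which did not pass. Between KAT2A_KD and KAT2B_KD, PI3 and SLPI differed by 1.31 (SE 0.495, adjusted p = 0.208) and 0.91 (SE 0.300, adjusted p = 0.140). There edgeR and DESeq2 called 0 of the 5 genes, 4 had an unadjusted p under 0.05, and 2.38% of all genes passed.

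**Figure D2:**
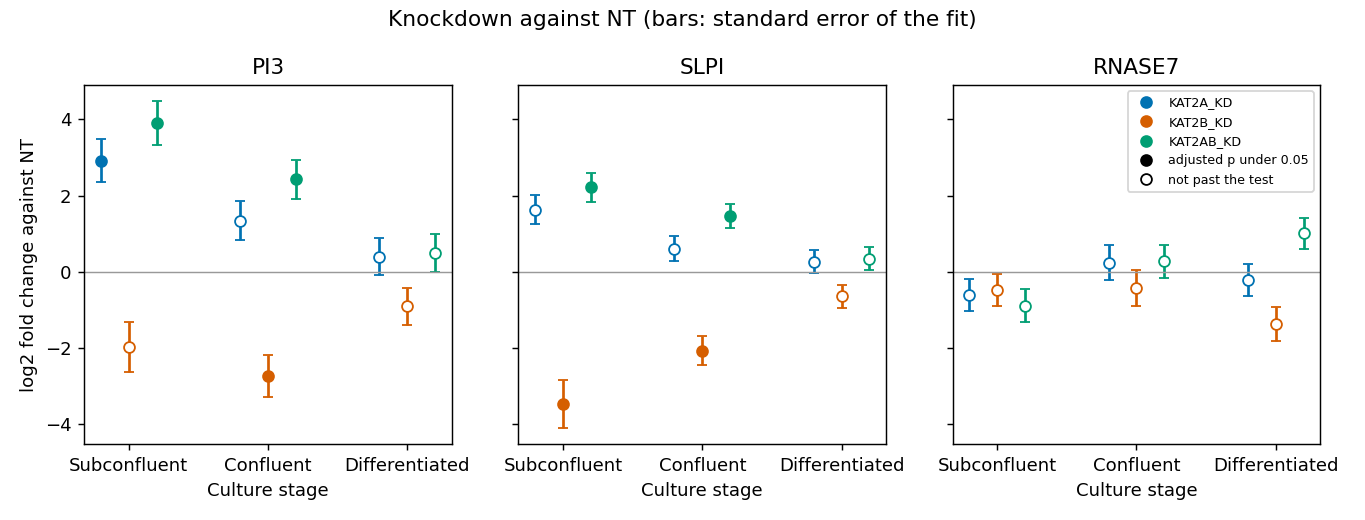
log2 fold change of each knockdown against NT at each culture stage for PI3, SLPI and RNASE7; bars are the standard error of the edgeR fit, filled points passed at an adjusted p under 0.05 and open points did not. For PI3 the values run from 3.90 in KAT2AB_KD at Subconfluent to -2.73 in KAT2B_KD at Confluent, and at Differentiated no point is filled for any of the 3 genes.

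RNASE7 followed another course. Its NT libraries were at 3.57 and 6.95 CPM at Subconfluent, 1.49 and 2.92 CPM at Confluent and 6.57 and 5.38 CPM at Differentiated. The step from Confluent to Differentiated was a rise of 1.43 on the log2 scale (SE 0.435, adjusted p = 0.0101), lost without NT Confluent replicate 1 (0.127) or NT Differentiated replicate 1 (0.0575). The earlier step was -1.23 (SE 0.434, adjusted p = 0.233) and did not pass. In KAT2AB_KD RNASE7 stood at 3.12 and 2.22 CPM at Confluent and at 12.6 and 11.6 CPM at Differentiated, the highest libraries of all 24. Its rise of 2.17 (SE 0.422, adjusted p = 0.000313) passed in 4 of 4 fits without 1 library. In KAT2A_KD it was at 6.31 and 3.95 CPM at Differentiated, with a step of 0.97 (SE 0.437, adjusted p = 0.0817), and in KAT2B_KD at 2.71 and 1.94 CPM, with a step of 0.49 (SE 0.470, adjusted p = 0.440). The steps were not shown to differ from that of NT, with adjusted p of 0.897, 0.663 and 0.720 in KAT2A_KD, KAT2B_KD and KAT2AB_KD.

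At Differentiated, both RNASE7 values of KAT2AB_KD lay above those of all other groups and both of KAT2B_KD lay below those of the other Differentiated groups. The difference between these double and single knockdowns was 2.38 on the log2 scale (SE 0.436, adjusted p = 0.00137), 5.20-fold, and passed in 4 of 4 fits without 1 library. RNASE7 and SLPI were the 2 of 5 tested genes that passed there, where 6.5% of all genes were higher, and DESeq2 also called DEFB1. Against NT, the differences came to -1.37 (SE 0.438, adjusted p = 0.0833) for KAT2B_KD and 1.01 in KAT2AB_KD (SE 0.407, adjusted p = 0.212). RNASE7 reads are few, between 40 and 305 per group of 2 libraries. At Subconfluent its 4 genotypes overlapped in a chain from 1.88 to 6.95 CPM.

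DEFB1 was nearly absent until the cells differentiated. Across the 16 undifferentiated libraries it had 0 to 5 reads each, and the 4 KAT2B_KD libraries among them had none. At Differentiated it was measured at 12.7 and 21.3 CPM in NT, 28.2 and 28.7 CPM in KAT2A_KD, 15.8 and 10.8 CPM in KAT2B_KD and 34.8 and 21.5 CPM in KAT2AB_KD. Every Differentiated library was above every earlier one. The step from Confluent was 6.19 on the log2 scale in NT (SE 0.562, adjusted p = 7.18e-08), 7.22 in KAT2A_KD and 7.01 in KAT2AB_KD. In KAT2B_KD it was at least 103-fold higher, taking 3 reads over the group as the limit that a count of 0 allows. DEFB1 entered the tests through its Differentiated reads, so this direction was fixed by the filter. The 2 KAT2A_KD libraries and both of KAT2AB_KD were above both NT libraries at Differentiated. For KAT2AB_KD the margin was small, with 21.52 CPM in its replicate 2 against 21.31 CPM in NT replicate 2. The differences from NT of 0.74 (SE 0.366, adjusted p = 0.407) and 0.73 (SE 0.366, adjusted p = 0.346) did not pass, nor did the KAT2B_KD value of -0.36 (SE 0.370, adjusted p = 0.680). DEFB1 was 1.09 higher in KAT2AB_KD than in KAT2B_KD (SE 0.369), which edgeR did not call (adjusted p = 0.0668) and DESeq2 did.

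LCN2 was low throughout. In NT it was at 0.396 and 0 CPM at Subconfluent, 0.236 and 0.641 CPM at Confluent and 1.84 and 3.87 CPM at Differentiated. The other Differentiated libraries held 3.19 and 5.30 CPM in KAT2A_KD, 5.52 and 0.747 CPM in KAT2B_KD and 6.59 and 3.96 CPM in KAT2AB_KD. The KAT2B_KD pair overlapped each other genotype, and both NT libraries lay below both of KAT2AB_KD, by little (3.87 against 3.96 CPM). The log2 step from Confluent was 2.66 in NT (SE 0.992, adjusted p = 0.0315) and 2.46 in KAT2AB_KD (SE 0.901, adjusted p = 0.0313). The former was lost without either NT Confluent library or NT Differentiated replicate 2 (0.0603 to 0.188), and the latter without replicate 1 of either stage (0.195 and 0.123). With 98 reads against 2 the ratio in KAT2A_KD was 45.7 (95% interval 12.3 to 383), and with 69 against 3 that in KAT2B_KD was 22.8 (7.48 to 113). These exact intervals cover counting error only, and the KAT2B_KD step was lost without KAT2B_KD Differentiated replicate 1 (adjusted p = 0.150). LCN2 also entered the tests through its Differentiated reads. Its differences from NT at Differentiated were 0.57 (SE 0.849), 0.12 (SE 0.858) and 0.89 (SE 0.845), and none passed.

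DEFB4A was at the limit of detection. It had 12 reads in all, in 4 Differentiated libraries: 3 and 0 in NT, 2 and 5 in KAT2A_KD, 2 and 0 in KAT2B_KD, and 0 and 0 in KAT2AB_KD. A count of 0 allows up to 3 reads, or 0.159 to 0.323 CPM by library, and differences of each knockdown from NT were not detectable at this depth. Only KAT2A_KD had more than 3 reads over its 2 Differentiated libraries. Its 7 reads were at least 2.53-fold higher than the 0 of KAT2AB_KD, taking 3 reads over the group as the floor, with no replicate test behind that bound. Its count equalled that of its near-identical copy DEFB4B in all 24 libraries. Reads of the 2 copies could not be told apart.

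**Figure D3:**
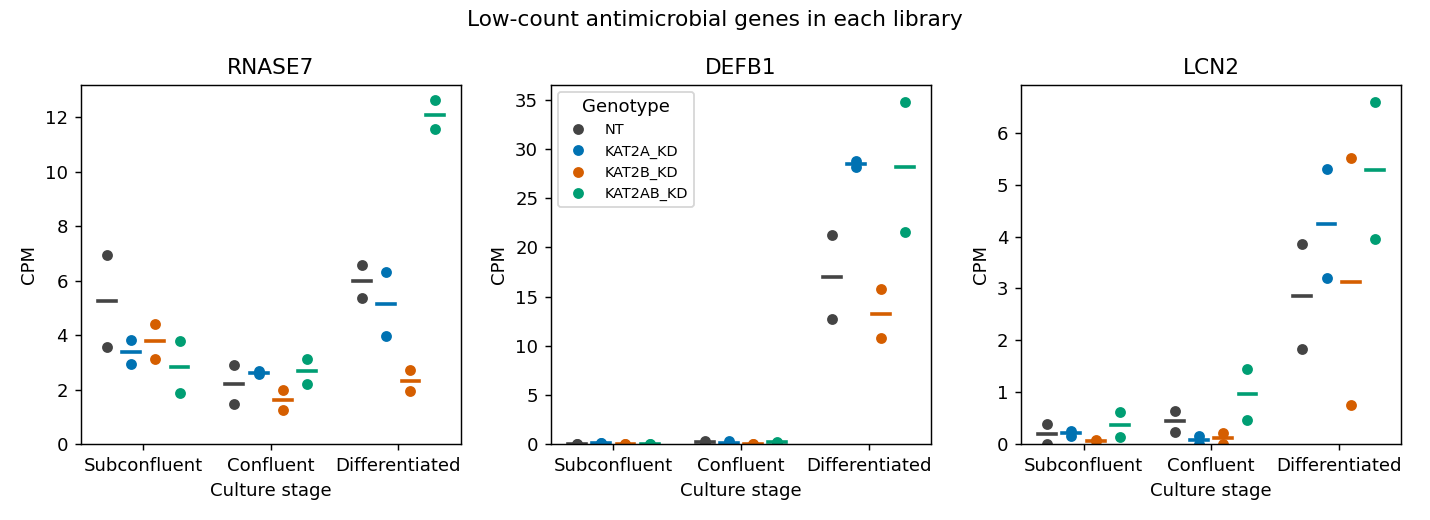
CPM of RNASE7, DEFB1 and LCN2 in each of the 24 libraries on linear axes that start at 0, by culture stage and genotype; points are libraries and bars are means of 2. RNASE7 in KAT2AB_KD at Differentiated (12.6 and 11.6 CPM) lies above all other libraries, DEFB1 is near 0 before Differentiated, and LCN2 in KAT2B_KD at Differentiated is split between 5.52 and 0.747 CPM.

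The RefSeq promoter table (GRCh38.p14) held 2 of the 6 genes, LCN2 and RNASE7, and their 250 bases before the start of the gene are shown as the sequences at hand for the 6. Capitals mark matches, on either strand, to the AP-1 letters TGANTCA, the C/EBP letters TTGCNNAA and the kappa-B letters (GGG and TCC with 4 bases of any kind between them). These are motifs of factor families known for the induction of antimicrobial genes in epithelium. LCN2 lies at chr9:128149203-128149452 and RNASE7 at chr14:21042112-21042361, both on the plus strand.
LCN2: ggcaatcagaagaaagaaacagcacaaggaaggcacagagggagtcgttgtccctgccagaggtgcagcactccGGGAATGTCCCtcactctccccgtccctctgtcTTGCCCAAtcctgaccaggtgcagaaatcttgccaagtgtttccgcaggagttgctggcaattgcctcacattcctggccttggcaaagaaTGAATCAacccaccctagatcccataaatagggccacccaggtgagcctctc
RNASE7: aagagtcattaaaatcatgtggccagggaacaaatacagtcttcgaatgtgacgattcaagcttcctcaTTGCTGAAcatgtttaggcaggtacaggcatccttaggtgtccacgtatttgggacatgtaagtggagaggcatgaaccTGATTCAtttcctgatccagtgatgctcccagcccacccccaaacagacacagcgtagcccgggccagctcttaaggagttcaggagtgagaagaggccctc

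In the LCN2 window the AP-1 letters begin 52 bases before the start, the C/EBP letters 143 bases before it, and overlapping kappa-B matches on both strands fill bases 176 to 166 before it. In the RNASE7 window the AP-1 letters begin 102 bases and the C/EBP letters 181 bases before the start. Of 35116 promoter windows of this length, 6.57% held the AP-1 letters, 9.05% the C/EBP letters and 19.9% the kappa-B letters. The GRHL letters AACCNGTT (1.49% of windows) and the TATA letters TATAAA (10.7%) were also searched on both strands and were not in these windows. A match is a description of the letters only.

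Across the 24 libraries PI3 and SLPI followed each other, with a Pearson r of log2 CPM of 0.987, and of 0.943 after the mean of each stage was subtracted. The same values for PI3 and RNASE7 were 0.455 and 0.145. LCN2 and DEFB1 had r of 0.451 and 0.540 with PI3 after subtraction. The libraries share stage and genotype, so these are descriptions without a test. The genes most like PI3 after subtraction, of 12562 searched, were SPRR1B (r 0.963), SPRR3 (0.954) and S100A8 (0.953), and those most like SLPI were S100A8 (0.954), S100A9 (0.951) and SPRR1B (0.947). The SPRR genes encode small proline-rich proteins of the cornified envelope, and S100A8 and S100A9 encode the subunits of calprotectin, which withholds metal ions from microbes. Without subtraction the nearest genes were SPRR1B, SPRR1A and SPRR3 for PI3 (0.991 to 0.989) and SPRR1B, KRTDAP and CLDN1 for SLPI (0.993 to 0.991). RNASE7 was closest after subtraction to UBL3 (0.879), PTGS2 (0.840), the inducible prostaglandin synthase, and TMCC1 (0.834). PTGS2 was at 54.8 and 61.8 CPM in KAT2AB_KD, 8.60 and 11.8 CPM in KAT2B_KD and 26.1 and 22.7 CPM in NT at Differentiated. LCN2 and DEFB1 were both closest to NOCT (0.713 and 0.759), with few reads of the members behind these values before differentiation.

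**Figure D4:**
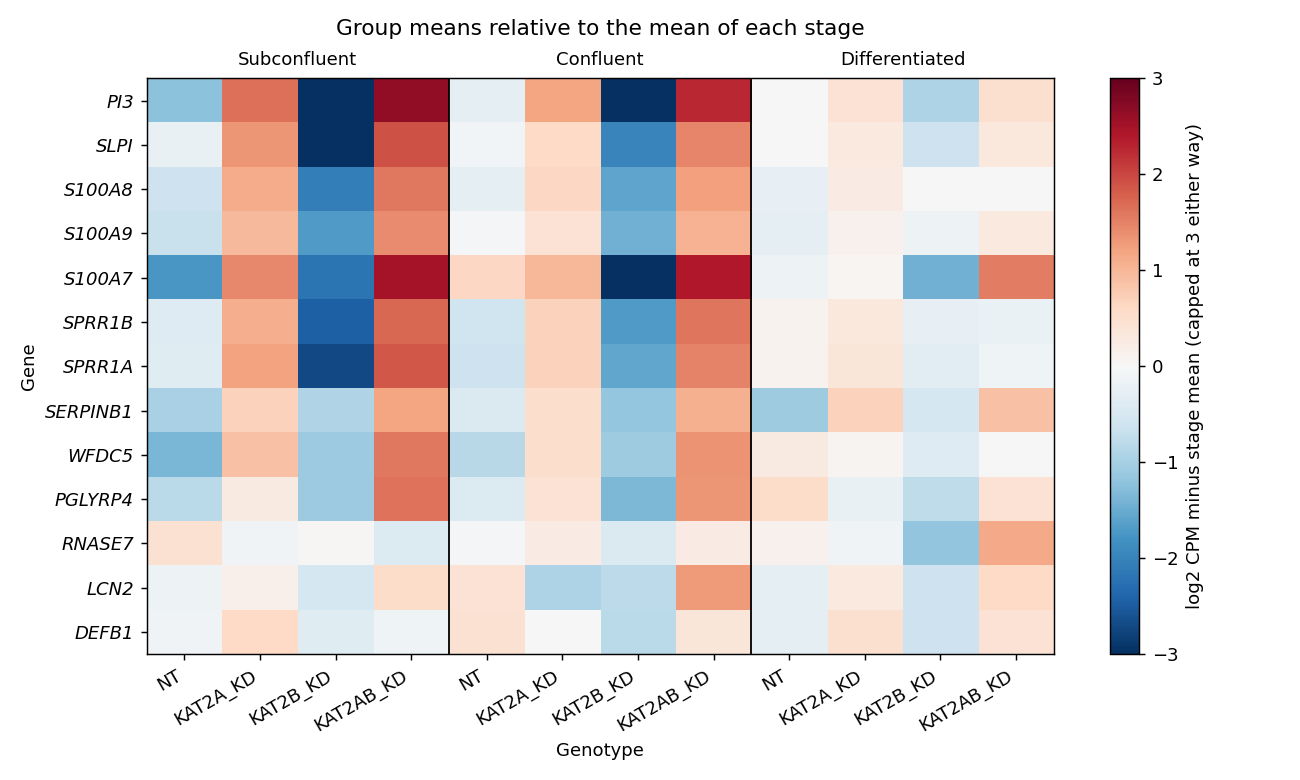
Mean log2 CPM of each group of 2 libraries minus the mean of the 8 libraries of its stage, for PI3, SLPI, RNASE7, LCN2, DEFB1 and 8 further genes chosen after their values were seen; red is above and blue below the stage mean, with colours capped at 3 either way. PI3, SLPI and the S100A and SPRR genes are red in KAT2AB_KD and blue in KAT2B_KD at Subconfluent and Confluent, while at Differentiated SPRR1B in KAT2AB_KD is at -0.19 and RNASE7 there is at 1.14.

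Other antimicrobial genes of skin were a list of 25, of which 15 could be tested. From Confluent to Differentiated in NT, 14 rose and 0 fell, where 24.3% of all genes rose. Among the 14 are DEFB103A and DEFB103B, whose counts were equal in all 8 libraries with reads and which cannot be told apart, and DESeq2 called 12, without this pair. Listed genes with few reads before Differentiated could enter the tests only through their Differentiated reads. For such genes a rise was fixed by the filter, so the count of 14 is no fair contrast with 24.3%. In KAT2AB_KD against NT at Subconfluent 7 of the 15 were higher, with a list median of 2.54 on the log2 scale where the median of all genes tested was -0.0016. They were S100A7, S100A7A, S100A8, S100A9, the peptidoglycan recognition genes PGLYRP3 and PGLYRP4, and the chemokine CXCL14. S100A8 was at 28.5 and 30.2 CPM in KAT2AB_KD and 6.41 and 6.10 CPM in NT, a difference of 2.23 (SE 0.418, adjusted p = 0.00477) that was lost without either NT library (at most 0.0741). Of all genes 1.86% were higher there. At Confluent 2 were higher in KAT2AB_KD, PGLYRP3 and PGLYRP4 (1.39% of all genes), where DESeq2 called 6, also S100A7, S100A7A, S100A8 and CXCL14, and 8 had an unadjusted p under 0.05. At Differentiated 2 were higher, S100A7 and S100A7A (1.57% of all genes), and CXCL14 was lower. There 2.74% of all genes passed in either direction. S100A7, psoriasin, was at 782 and 467 CPM in KAT2AB_KD and 131 and 266 CPM in NT at that stage (log2 1.65, SE 0.397, adjusted p = 0.0312), and this call remained in 1 of 4 fits, the one without KAT2AB_KD Differentiated replicate 2 (at most 0.248 in the others). S100A7 reads ran at 1.28 to 1.39 times those of the similar gene S100A7A wherever the latter had over 100 reads, and the split between them is uncertain.

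In KAT2B_KD against NT, 2 of the 15 were lower at Confluent, S100A7 and S100A7A, and 2 at Differentiated, PGLYRP4 and PGLYRP3, where 0.393% and 3.18% of all genes were lower. DESeq2 called 4 at each, S100A8 and S100A9 besides at Confluent and S100A7 and S100A7A besides at Differentiated. S100A7 had no read in either KAT2B_KD Confluent library, where NT had 2.43 and 5.48 CPM, and the call was lost without KAT2B_KD Confluent replicate 1 (adjusted p = 0.0984). At Subconfluent edgeR and DESeq2 called 0 of the 15 in KAT2B_KD, and 3 had an unadjusted p under 0.05, where edgeR called 0.0698% of all genes lower. In KAT2A_KD against NT at Subconfluent, 0.267% of all genes were higher. DESeq2 called 4 of the 15 there, S100A7, S100A7A, S100A8 and S100A9. By edgeR only S100A7 was higher (log2 3.87, SE 0.812, adjusted p = 0.0432), 1 of 15. That call was lost without any 1 of its 4 libraries (adjusted p up to 0.495). S100A8 was at 5935 and 2882 CPM in KAT2B_KD and 2708 and 4403 CPM in NT at Differentiated. Those libraries overlapped, unlike at the earlier stages, where both KAT2B_KD libraries (2.28 and 2.09 CPM, then 7.49 and 12.3 CPM) were below both of NT.

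Of 16 other WAP-domain genes, relatives of PI3 and SLPI, 3 could be tested. WFDC5 was higher in KAT2AB_KD than in NT at Subconfluent (0.862 and 1.25 CPM, with no read in NT) and at Confluent (2.33 and 2.78 CPM against 0.393 and 0.498 CPM, log2 2.48, adjusted p = 0.0181). The Confluent call was lost without any 1 of its 4 libraries, and the Subconfluent call remained only without KAT2AB_KD Subconfluent replicate 1 (adjusted p up to 0.200 and 0.101). WFDC12 was at 27.4 and 13.8 CPM in KAT2B_KD and 87.4 and 72.3 CPM in NT at Differentiated, lower by a log2 difference of -1.96 (SE 0.310, adjusted p = 0.00163). Of 14 serine proteases and further inhibitors, 10 could be tested. ELANE, the neutrophil elastase that PI3 and SLPI block, was not among them. SERPINB1, another inhibitor of elastase, was higher in KAT2AB_KD than in NT at all 3 stages, with log2 differences of 2.17, 1.49 and 1.96 (adjusted p = 0.000159, 0.00281 and 0.000632), the second lost without NT Confluent replicate 1 (adjusted p = 0.101). Unlike PI3 and SLPI it fell in NT from Confluent to Differentiated, by 1.12 on the log2 scale. SERPINB1 was also higher in KAT2A_KD than in NT at Subconfluent and Differentiated, 1 of 10 genes at each. There 0.267% of all genes were higher, then 1.22% passed in either direction. In KAT2AB_KD against NT 1, 3 and 2 of the 10 were higher by stage, where 1.86%, 1.39% and 1.57% of all genes were. SERPINA1 was among them at Confluent and Differentiated and SPINK5 at Confluent, and KLK7 was lower at Differentiated. In KAT2B_KD at Differentiated 5 of the 10 were lower than in NT, the skin proteases KLK5 and KLK7 and the inhibitors SPINK5, SPINK6 and SPINK7, where 3.18% of all genes were lower.

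Among 24 tested cytokine and receptor genes known to bear on antimicrobial induction, 4 were higher in KAT2AB_KD than in NT at Subconfluent (IL1RN, IL22RA1, HBEGF and IL36G), 1 at Confluent (IL1RN) and 4 at Differentiated (IL1B, IL1A, EREG and OSMR). Of all genes 1.86%, 1.39% and 1.57% were higher in these comparisons, and 1 of 24 is near that share. DESeq2 called 6, 5 and 5 of the 24. The calls of HBEGF, IL36G and OSMR were lost without any 1 of 4 libraries. IL1B, which encodes interleukin-1 beta, was at 43.7 and 40.9 CPM in KAT2AB_KD and 6.04 and 9.52 CPM in NT at Differentiated (log2 2.44, SE 0.275, adjusted p = 8.92e-05). IL1B was also higher in KAT2A_KD than in NT at Differentiated, 1 of 24, where 1.22% of all genes passed in either direction. In NT it fell from Confluent to Differentiated. At Differentiated 3 were lower in KAT2B_KD than in NT, TGFA, IL22RA1 and IL36RN (3.18% of all genes), the last lost without any 1 of 4 libraries. Of 29 transcription factors and adaptors, 16 rose and 4 fell from Confluent to Differentiated in NT, where 24.3% of all genes rose and 26.1% fell. Against NT, 2 of the 29 were higher in KAT2AB_KD at each stage, where 1.86%, 1.39% and 1.57% of all genes were. In KAT2A_KD 2 were higher at Confluent and 2 at Differentiated, where 0.647% and 1.22% of all genes passed in either direction. In KAT2B_KD 1 was higher at Confluent and 1 at Differentiated, where 73 of 15757 genes and 4.85% of all genes passed. Lower in KAT2B_KD were 1 at Subconfluent (0.0698% of all genes) and 2 at Differentiated (3.18%), and 2 of 29 is near that last share. MAF was higher than in NT at Confluent in all 3 knockdowns, by 1.88 in KAT2A_KD, 2.79 in KAT2B_KD and 2.64 in KAT2AB_KD on the log2 scale (adjusted p of at most 0.00192), and the first was lost without NT Confluent replicate 1 (adjusted p = 0.0544). FOS was higher than in NT at Differentiated in all 3, by 2.16, 2.28 and 2.30 in the same order (adjusted p of at most 0.0221), and at Subconfluent in KAT2AB_KD by 1.80. In KAT2A_KD the FOS call was lost without any 1 of 4 libraries (adjusted p up to 0.196), and in KAT2B_KD it was lost without KAT2B_KD Differentiated replicate 2 or NT Differentiated replicate 1 (up to 0.0992). In KAT2AB_KD the FOS call at Subconfluent was lost without any 1 of its 4 libraries (adjusted p up to 0.241), and that at Differentiated remained only without KAT2AB_KD Differentiated replicate 1 (adjusted p up to 0.109 without another). The genes lower than in NT in KAT2B_KD were GRHL3 at Subconfluent, which remained only without NT Subconfluent replicate 2, and KLF4 and FOSL1 at Differentiated, of which the former was lost without any 1 library and the latter remained only without KAT2B_KD Differentiated replicate 2.

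Part of the keratinocyte differentiation genes were higher in KAT2AB_KD before differentiation, as PI3 and SLPI were. Of 15 such genes, 5 were higher than in NT at Subconfluent and 8 at Confluent, where 1.86% and 1.39% of all genes were higher, and their summed level was 604 to 655 CPM against 455 to 480 CPM in NT, then 1077 to 1131 CPM against 589 to 792 CPM. In KAT2A_KD 2 of the 15 were higher than in NT at Subconfluent (0.267% of all genes) and 1 at Confluent, where 0.647% passed in either direction. Its sum was 556 to 590 CPM, above NT, and then 758 to 1069 CPM, overlapping NT. In KAT2B_KD the sum was 413 to 480 CPM at Subconfluent and 776 to 856 CPM at Confluent, overlapping NT at both stages. A sum is weighted towards its most abundant genes. The median log2 difference of the 15 from NT was -0.747 and -0.737, where that of all genes tested was -0.0086 and 0. At these 2 stages edgeR called 0 of the 15 in KAT2B_KD against NT, and 0.0698% and 0.393% of all genes lower. Of the 15, 4 at each stage had an unadjusted p under 0.05, and DESeq2 called 2 (SPRR1A and SPRR1B) and 0. At Differentiated the sum was lower in every knockdown (26031 to 42328 CPM over the 6 libraries) than in NT (50224 to 59758 CPM). By test 7 of the 15 were lower in KAT2B_KD (3.18% of all genes). In KAT2AB_KD 1 was lower, KRT1, and in KAT2A_KD 0 passed, where 2.74% and 1.22% of all genes passed in either direction. The median log2 difference of the 15 was -0.45 in KAT2A_KD, -0.75 in KAT2B_KD and -0.65 in KAT2AB_KD. PI3 and SLPI did not share that order at Differentiated, where KAT2A_KD and KAT2AB_KD had the highest means. From Confluent to Differentiated, 9 of the 15 rose less in KAT2AB_KD than in NT, where 1.33% of all genes passed in either direction. In KAT2A_KD and KAT2B_KD 1 did so in each, where 0.616% and 0.888% of all genes passed. The part of the differentiation genes in the members' levels was not tested.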

How the data were processed

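Polyadenylated RNA was selected and sequenced as single-end reads from libraries of a directional kit, per the labels' protocols. The deposited table holds raw read counts per gene, which the authors made with featureCounts. Bowtie2, FastQC, DESeq2 and the build hg19 are also named, all per the submitters' processing notes. Strand setting, annotation, versions and the treatment of reads that map to several genes are not given in the sources used here. A deposited sample table gives each library's genotype, stage, day and a replicate number of 2 or 3, called 1 and 2 here. The counts also held 1 column that matched no sample and was not used.

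Counts were tested with edgeR 4.0.16 in R 4.3.3: filterByExpr by group, TMM scaling, 1 quasi-likelihood fit of all 24 libraries as 12 groups, 29 contrasts, and Benjamini-Hochberg adjustment over 15757 genes within each, threshold 0.05. Library totals of 8010178 to 16054003 limit the precision of low genes. Alternatives were DESeq2 1.42.0, RLE scaling, no filter, a replicate block and each library left out. Same-numbered libraries deviated together with a median correlation of 0.118 between groups, over 0.1 in 37 of 66 pairs of groups. The main fit did not pair them, so a shift that same-numbered libraries share counts there as spread. With the replicate block, 870 genes in place of 764 were called in KAT2B_KD against NT at Differentiated.

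The 6 genes and all gene lists were chosen with earlier results of these data known. Beyond the 6, the rule named the 3 genes with the highest Pearson r to each tested member, with and without stage means subtracted, and up to 4 genes of each list by p. Genes named past that, the comparisons of KAT2AB_KD with the single knockdowns and the genes of the colour map were chosen after values were seen. The values of 1 listed transcription factor are not reported here.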

Additional observations from a re-analysis of the deposited data

How the results depend on the processing

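No value of the 6 genes changed direction while called. RLE scaling and the replicate block left all 58 compared calls on their side of the threshold, DESeq2 added 5 calls and leaving low genes in added 19. In 244 comparisons of that kind with 1 library left out, which makes a group smaller, 37 calls were lost and 1 was added. The cause of the changes with DESeq2 and with no filter was not tested. Of 72 group levels, 2 moved by over 1 SD with RLE scaling and 10 with library totals alone.

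With DESeq2 the number of the 5 genes called went from 0 to 1 for KAT2AB_KD Confluent against Subconfluent and KAT2B_KD against NT at Differentiated, from 1 to 2 for KAT2B_KD Confluent against Subconfluent and KAT2A_KD against NT at Subconfluent, and from 2 to 3 for KAT2AB_KD against KAT2B_KD at Differentiated (DEFB1). With no filter it went from 0 to 1 for KAT2A_KD against NT at Confluent, KAT2AB_KD against KAT2A_KD at Confluent and the KAT2AB_KD difference in the differentiation step. It went from 0 to 2 for Confluent against Subconfluent in KAT2A_KD and in KAT2AB_KD, KAT2B_KD against NT at Differentiated and the KAT2B_KD difference in the differentiation step. It went from 1 to 2 for KAT2B_KD Confluent against Subconfluent and for KAT2A_KD and KAT2B_KD against NT at Subconfluent. It went from 0 to 3 for KAT2A_KD against KAT2B_KD at Differentiated and from 2 to 4 for KAT2AB_KD against KAT2B_KD at Differentiated.

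With 1 library left out, the count ranged from 0 to 2 for NT and for KAT2B_KD Confluent against Subconfluent, for KAT2B_KD and KAT2AB_KD against NT at Confluent and for KAT2A_KD against KAT2B_KD at Confluent. It was 0 in every such fit for KAT2A_KD and KAT2B_KD against NT at Subconfluent, 1 to 2 for KAT2AB_KD against NT at Subconfluent and against KAT2B_KD at Differentiated, and 3 to 4 for NT Differentiated against Confluent.

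The replicate block changed no call of the 6 genes. PI3 was higher in replicate 1 than in replicate 2 in 4 of 4 Differentiated groups, by 1.65 to 1.96 times. At Confluent that held in 1 of 4 groups and at Subconfluent in 2 of 4. The block fits 1 shift per gene over all stages, so it could not take up a shift that is found at Differentiated alone. With the block the PI3 difference from NT at Differentiated was -0.91 in KAT2B_KD (SE 0.490, adjusted p = 0.328).

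Over all genes, the numbers called by edgeR, DESeq2 and with no filter were 142, 353 and 430 for NT Confluent against Subconfluent. Against NT they were 54, 136 and 223 in KAT2A_KD at Subconfluent, 14, 66 and 104 in KAT2B_KD at Subconfluent, 73, 156 and 212 in KAT2B_KD at Confluent, 425, 742 and 762 in KAT2AB_KD at Subconfluent and 359, 614 and 747 in KAT2AB_KD at Confluent. They were 102, 181 and 302 in KAT2A_KD at Confluent, 192, 460 and 506 at Differentiated, and 431, 734 and 782 in KAT2AB_KD at Differentiated. For KAT2A_KD against KAT2B_KD by stage they were 84, 126 and 210, then 45, 100 and 204, then 375, 608 and 675. For KAT2AB_KD against KAT2B_KD at Subconfluent and Confluent they were 411, 686 and 684, then 254, 395 and 520, and against KAT2A_KD by stage 0, 9 and 90, then 1, 15 and 92 (3 with the block), then 50, 180 and 240. For the difference in the differentiation step they were 97, 180 and 272 in KAT2A_KD, 140, 357 and 346 in KAT2B_KD and 210, 407 and 548 in KAT2AB_KD. For Confluent against Subconfluent they were 37, 142 and 194 in KAT2A_KD, 254, 439 and 548 in KAT2B_KD and 96, 227 and 296 in KAT2AB_KD. With 1 library left out, 88 of 124 such numbers differed by over 1.5 times.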
